A study of Mus musculus with 4 samples.

Results

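Natural killer-like T cells without CD4 or CD8 transcripts were chosen from the bone marrow mononuclear cells of TLR9-/- and WT mice by their own molecule counts, which are unique molecular identifiers (UMIs). A member had at least 1 UMI of Cd3d, Cd3e and Cd3g together and at least 2 UMIs of Nkg7, Klrb1c, Klrd1 and Ccl5 together. It had 0 UMIs of Cd4, of Cd8a and Cd8b1 and of Siglech, and at most 1 UMI of Cd79a and Cd79b. The rule gave 685 members of 39167 kept cells. There were 358 members of 10781 cells in TLR9-/- replicate 1, 133 of 8918 in TLR9-/- replicate 2, 144 of 10573 in WT replicate 1 and 50 of 8895 in WT replicate 2. The first group is homozygous for a disrupted Tlr9 allele, the gene of an endosomal receptor for unmethylated CpG DNA, and the second carries the wild-type gene. Both were on the C57BL/6 background, untreated as far as the labels state, with 1 library of bone marrow mononuclear cells per mouse. The methods give a Ficoll gradient for such cells in other assays. Age is not given in the sources used here. The methods describe 2 experiments with 1 mouse of each genotype, and the labels do not say whether replicate numbers mark them. The genotypes were bred in separate cages, so that genotype and cage cannot be told apart.

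T cells carry 1 of 2 kinds of antigen receptor, built from alpha and beta chains or from gamma and delta chains, each beside the Cd3 signalling proteins. Cells without Cd4 and Cd8 include most gamma-delta T cells and part of the natural killer T cells, alpha-beta T cells that recognise lipids on CD1d and share receptors, adaptors and granule proteins with natural killer (NK) cells. In the mouse the invariant natural killer T cell pairs the alpha segments Trav11 and Traj18 with beta segments such as Trbv13-2 and depends on the transcription factor Zbtb16, and it is common in liver and present in bone marrow.

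The libraries were read from the 5′ end of the transcript, where a receptor transcript holds its variable segment, and the segments met most often in the members mark which receptor a cell used. The following stretches of the spliced segments come from GENCODE vM21 on GRCm38 and are written 5′ to 3′. The first belongs to Trbv13-2 (chr6:41121396-41121832, plus strand, bases 1 to 120 of the transcript), the beta segment found in the largest number of members, and the other pair to the gamma segments Trgv2 (chr13:19336573-19337167, minus strand, bases 138 to 257) and Tcrg-V1 (chr13:19339989-19340454, plus strand, bases 24 to 143). Capitals mark the 5 bases at which the gamma stretches differ.
Trbv13-2: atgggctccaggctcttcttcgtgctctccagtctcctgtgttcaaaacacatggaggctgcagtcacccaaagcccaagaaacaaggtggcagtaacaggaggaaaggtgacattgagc
Trgv2: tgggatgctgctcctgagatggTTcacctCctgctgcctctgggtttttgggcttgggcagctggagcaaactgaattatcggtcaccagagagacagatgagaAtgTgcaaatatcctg
Tcrg-V1: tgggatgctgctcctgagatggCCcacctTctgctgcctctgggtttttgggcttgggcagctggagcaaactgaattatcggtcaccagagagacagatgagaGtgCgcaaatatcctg
The longest run shared by the gamma pair was 74 bases, so that how reads were split between Trgv2 and Tcrg-V1 is uncertain. Trav11 (chr14:53519303-53519859) and its copy Trav11d (chr14:52824357-52824912) were identical over 342 bases and cannot be told apart by a read within them.

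The genes of the rule describe the members but were not tested. Nkg7, a membrane protein of cytotoxic granules, had a UMI in 91.4% of members, and Ccl5, a chemokine of memory and effector lymphocytes, in 86.4%. Klrd1 (CD94) had a UMI in 61.5% and Klrb1c (NK1.1), the classical surface marker of natural killer T cells in this strain, in 39.9%. Cd3e had a UMI in 64.5%, Cd3g in 77.2% and Cd3d in 86.9%. These shares depend on depth, and Klrb1c had a UMI in 22.7% of members at 1000 UMIs per cell and in 30.8% at 1500. There were 32 members with exactly 2 UMIs of the 4 NK genes, 55 otherwise equal cells outside the rule with exactly 1, 91 members with exactly 1 Cd3 UMI and 28 with exactly 1 Cd79 UMI.

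Genes outside the rule bear on the label. Constant segments of a T cell receptor, compared here at 1000 UMIs per cell because the share of cells with a UMI rises with depth, were found in 375 of the 640 members that reached it. Fcer1g, an adaptor chain of NK receptors, had a UMI in 50.6% of members at that depth, Tyrobp (DAP12), another such adaptor, in 38.6%, and Ncr1 (NKp46), a receptor nearly restricted to NK cells, in 11.1%. In CD8 cytotoxic T cells, defined by the same rule but with at least 1 Cd8a or Cd8b1 UMI, these shares were 10.1%, 8.33% and 0%. In B lineage cells, which make none of the T cell receptor, Fcer1g had a UMI in 11.2%, Tyrobp in 17.8% and Ncr1 in 0.0468% at the same depth. The member shares include 77 members with 20 or more UMIs of neutrophil and monocyte genes, described below. Tyrobp had 1536, 1285, 398 and 260 UMIs in members of TLR9-/- replicates 1 and 2 and WT replicates 1 and 2. Without the 77 it had 983, 453, 251 and 49. The share of members with a UMI of an NK adaptor or Ncr1 was 56.4% at 1000 UMIs per cell and 52.9% without the 77. Zbtb16 had 21 UMIs in 18 members (2.63%), Trav11 had 3 UMIs in 3 members, and Trav11d and Traj18 had 0 UMIs. Reads that match Trav11 and Trav11d equally may not have been counted, so these counts do not set the share of invariant natural killer T cells, and the name used below means T cells with NK genes of whatever lineage. These shares and all intervals below cover counting error only.

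Depth was 50204578 UMIs over the kept cells of TLR9-/- replicate 1, 63958243 in TLR9-/- replicate 2, 31210188 in WT replicate 1 and 41384657 in WT replicate 2. Members held 954725, 899560, 354076 and 218448 of these, in the same order, with medians of 1917, 3293, 1760.5 and 2173 UMIs per cell. Transcripts of other cell types were unevenly spread among them. Genes of neutrophils and monocytes, at 20 or more UMIs per cell, were found in 77 members (11.2%), which held 177831 of the 178858 such UMIs of all members. These 77 were 28 (7.82%) and 34 (25.6%) of the TLR9-/- members of replicates 1 and 2, and 10 (6.94%) and 5 (10%) of the WT members. Their median depth was 11051 UMIs, against 1919 in the other 608 members, and 31 of them (40.3%) had no T cell receptor constant UMI, against 112 (18.4%). The part of doublets and of free RNA in these cells was not tested. Scrublet, which scores cells against simulated doublets, marked 9, 15, 0 and 2 members in the 4 libraries. In WT replicate 2 the cut came from an expected doublet rate and marked 7.12% of cells, where the automatic threshold marked 0.0112%. The other libraries kept the automatic threshold. No member barcode was a member in more than 1 library, although each pair of libraries shared between 118 and 203 barcodes over all cells.

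**Figure D1:**
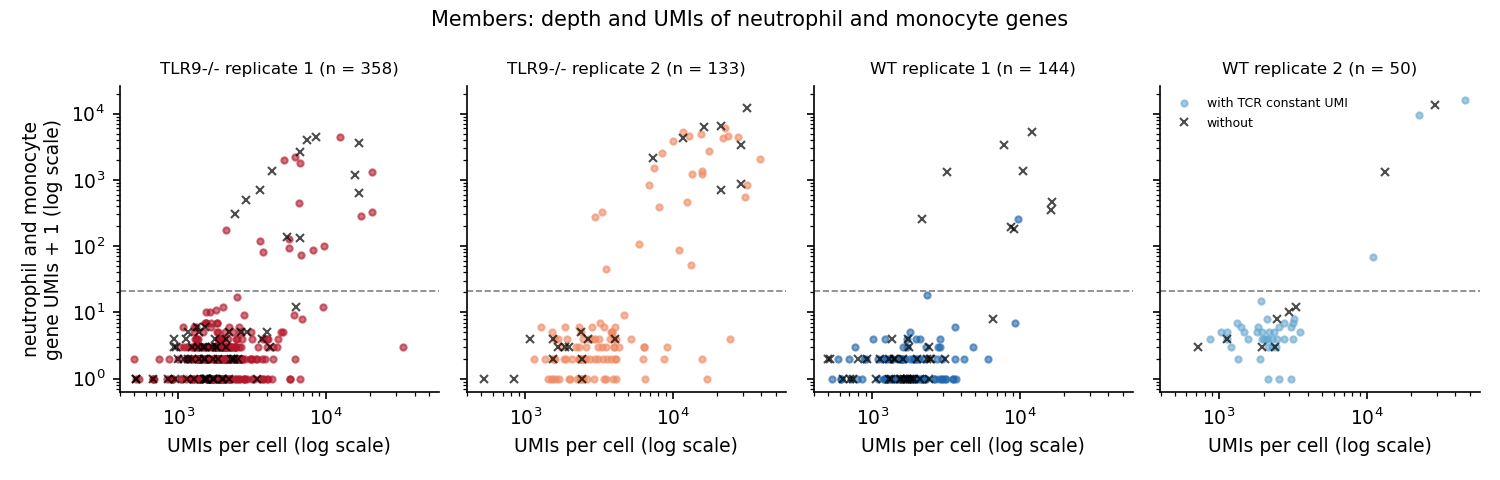
Each point is 1 member, with its UMIs on the horizontal axis and its UMIs of neutrophil and monocyte genes plus 1 on the vertical axis, both on log scales, in 1 panel per library, and the dashed line marks 20 such UMIs. The 77 members on or above the line have a median of 11051 UMIs against 1919 below it, but the ranges overlap and members of up to 33534 UMIs lie below the line.

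With these 77 cells left out, the 13 neutrophil genes fell from 33766, 98480, 36080 and 183499 UMIs per 1000000 UMIs of the members (UPM) to 560, 339, 244 and 1699 in the 4 libraries. S100a9 was the most abundant of them over all members, where none of the 13 was at 0, and without the 77 Ltf was at 0. The 12 monocyte genes, led by Lyz2 and with Vcan at 0, summed to 3245, 4451, 3302 and 5415 UPM over all members. Erythroid genes, led by the beta globin Hbb-bs, did not follow this pattern, at 1824, 1822, 18267 and 6583 UPM over all members and 2144, 900, 21077 and 15029 without the 77. Of the 11286 erythroid UMIs, 10795 lay in 21 members with 20 or more, which were 4, 5, 9 and 3 per library. Basophil genes had 1071, 119, 7 and 2 UMIs, of which 1170 came from 3 members, and the 14 B lineage genes, led by Ighm, summed to 385, 262, 446 and 156 UPM.

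Whether TLR9 loss changed the number of these cells was asked with their share of all kept cells. In TLR9-/- replicates 1 and 2, members made up 3.32% (95% exact interval 2.99 to 3.68) and 1.49% (1.25 to 1.76), and in WT replicates 1 and 2 they made up 1.36% (1.15 to 1.60) and 0.562% (0.417 to 0.740). Both TLR9-/- shares were above both WT shares, but TLR9-/- replicate 2 and WT replicate 1 lay close together. The means were 2.41% ± 1.29 and 0.962% ± 0.566 (SD, n = 2), an exact two-sided permutation test gave p = 0.333, the smallest value that 2 libraries against 2 allow, and edgeR gave a log2 fold change of 1.32 (SE 0.66, adjusted p = 0.0690 over 5 lymphocyte groups). The difference passed neither test with the libraries unpaired. With a replicate block edgeR gave 1.33 (adjusted p = 0.00162), but the labels do not say whether replicate numbers mark the experiments. Without the members of high myeloid load the genotypes overlapped, at 3.06% and 1.11% against 1.27% and 0.506%. They also overlapped with cells thinned to 1000 UMIs before the rule (1.27% in TLR9-/- replicate 2 against 1.58% in WT replicate 1), with at least 500 genes and without the cells marked by Scrublet. They stayed apart with at most 5% mitochondrial UMIs, with an NK score of at least 3, with at least 2 Cd3 UMIs and with at least 1 receptor constant UMI, and only the last of these passed edgeR's test (log2 fold change 1.48, adjusted p = 0.0427). CD8 cytotoxic T cells, the nearest group, made up 1.12% and 0.751% of TLR9-/- cells and 0.246% and 0.191% of WT cells, with a log2 fold change of 2.09 by edgeR (adjusted p = 0.0293) and the same exact permutation p of 0.333. That call was lost with any 1 library left out, at adjusted p values of 0.0992 to 0.246, and with at least 500 genes per cell (0.0671), and the difference between the effects in the groups was not tested.

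Among lymphocytes alone the genotypes overlapped. Of Cd3-positive cells, members were 46.9% and 29.8% with TLR9 disrupted and 46.6% and 24.9% in WT mice. Replicates 1 of both genotypes were high and replicates 2 low, with an exact permutation p of 0.667. Of all T and NK groups, members were 20.5% and 10.5% against 19.1% and 7.30%, a difference of 2.32 percentage points (exact permutation p = 0.667) that turned to -2.70 points without TLR9-/- replicate 1 and to -3.56 without WT replicate 2. That denominator holds 2995 Cd3-negative cells, most of them Nkg7-positive progenitors, so that the Cd3-positive denominator is the closer one.

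**Figure D2:**
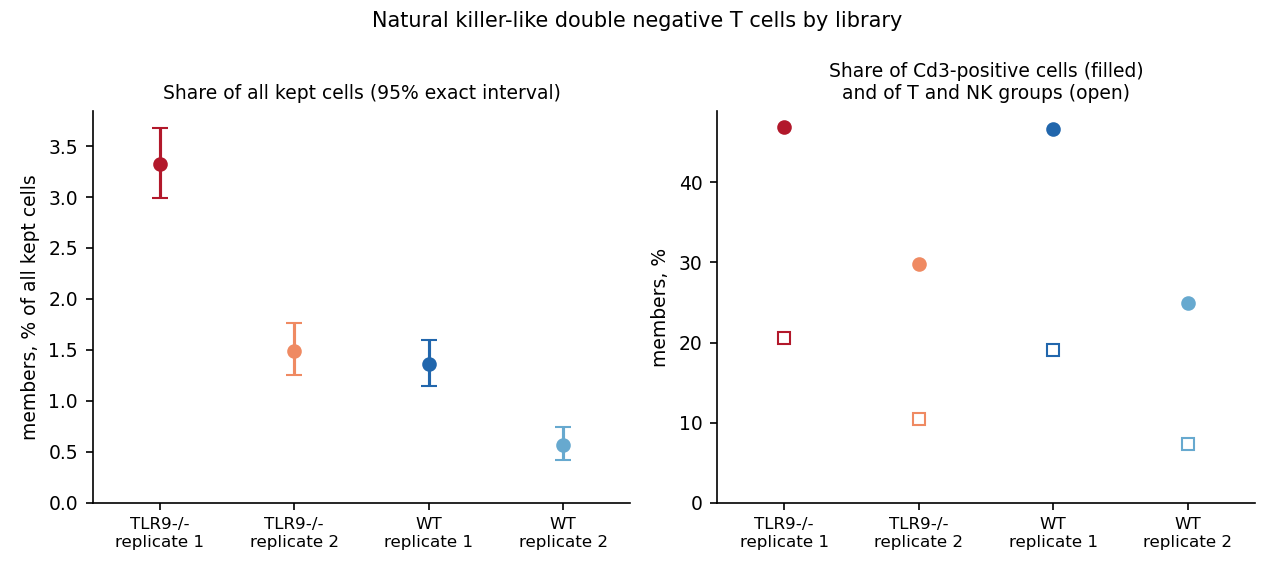
The left panel gives members as a percentage of all kept cells in each of the 4 libraries, with 95% exact binomial intervals, and the right panel gives them as a percentage of Cd3-positive cells (filled) and of the T and NK groups (open). The TLR9-/- shares of all cells, 3.32% and 1.49%, lie above the WT shares of 1.36% and 0.562%, while the shares of Cd3-positive cells overlap between genotypes.

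The members were a mixture by their receptor. At 1000 UMIs per cell, 257 of the 640 members (40.2%) had constant segments of the alpha or beta chain only (Trac, Trbc1, Trbc2), 54 (8.44%) of the gamma or delta chain only, 64 (10%) of both kinds and 265 (41.4%) of neither. Cells with alpha-beta segments only made up 38.8% and 34.4% of the TLR9-/- members and 45.2% and 52.1% of the WT members. Cells with gamma-delta segments only made up 9.85% and 9.92% against 4.76% and 4.17%. Neither pair of genotypes overlapped at this depth, and both differences had an exact permutation p of 0.333, the smallest possible. At 1500 UMIs per cell the genotypes overlapped for alpha-beta segments only, at 41.7% and 30.4% against 46.9% and 41.0% (exact permutation p = 0.667). At 1000 UMIs per cell, cells with both kinds were 11.3% and 11.5% against 4.76% and 10.4%. Cells with neither were 40% and 44.3% against 45.2% and 33.3% at that depth. Trdc, the only constant gene of the delta chain, had a UMI in 11.0% and 12.2% of TLR9-/- members at 1000 UMIs per cell. In WT members it had a UMI in 1.59% and 2.08% at that depth, and these shares are 37, 16, 2 and 1 cells. Unthinned it was found in 17.0%, 23.3%, 5.56% and 8% of members, and the genotypes were apart at either depth.

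Background in these classes differed by group. At 1000 UMIs per cell, alpha-beta segments alone were found in 0.0767% to 0.303% of B lineage cells. They were found in 23.5% to 30.4% of Ncr1-positive NK cells, which have no Cd3 UMI by definition. Constant segments of the beta chain are transcribed in part of the NK cells without a rearranged receptor, so a class from constant genes alone does not show a complete receptor. In the Ncr1-positive NK cells, 168 at this depth, gamma-delta segments alone were found in 3.49% and 4.35% of TLR9-/- and 7.14% and 0% of WT cells, so that the TLR9-/- members were above the NK cells of their libraries and the WT members were not in replicate 1. Trdc was found in 5.81% and 8.70% of TLR9-/- and 2.38% and 0% of WT NK cells, apart between genotypes in the same direction as in the members, and whether the genotype difference was larger in members was not tested. In CD8 cytotoxic T cells gamma-delta segments alone were found in 0.847%, 1.49%, 0% and 0%, below the 4.17% to 9.92% of members in each library.

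**Figure D3:**
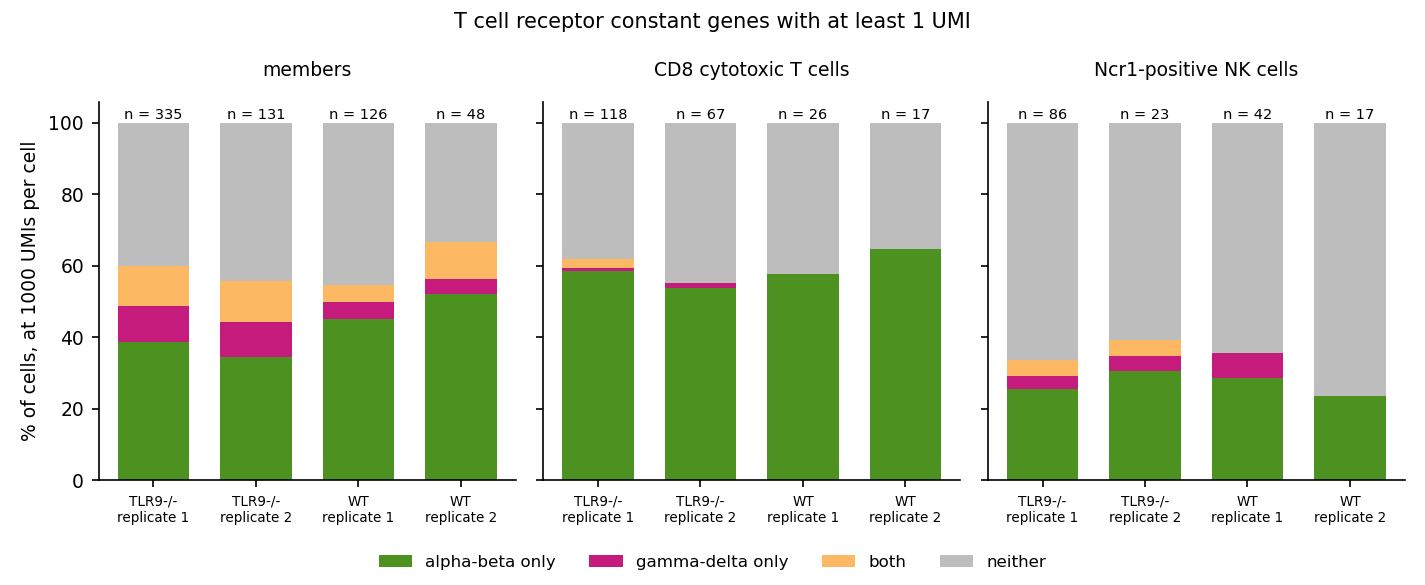
Stacked bars give the percentage of cells with UMIs of alpha-beta constant genes only, gamma-delta constant genes only, both or neither in each library, at 1000 UMIs per cell, for the members and the 2 comparison groups. Gamma-delta only cells form 9.85% and 9.92% of TLR9-/- members against 4.76% and 4.17% of WT members.

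A Trbv segment was found in 380 members (55.5%), a Trav segment in 157 (22.9%), a gamma V segment in 130 (19.0%) and a Trdv segment in 63 (9.20%), against a Trbv segment in 0.537% of 16570 B lineage cells. In CD8 cytotoxic T cells 190 of 231 (82.3%) had a Trbv segment and 11 (4.76%) a gamma V segment. Trbv13-2, the first sequence above, was the most frequent with 104 members, 60, 15, 19 and 10 in the 4 libraries, and was found in 40 of the CD8 cytotoxic T cells. Trgv2 was found in 87 members, 49 and 19 from TLR9-/- mice and 12 and 7 from WT mice. Tcrg-V1 was found in 34 and 14 TLR9-/- members and in 2 and 1 WT members. The delta segment Trdv2-2 (chr14:53960944-53961602) was found in 27 and 14 against 1 and 0, and Tcrg-V4 in 13 and 6 against 0 and 0. The last 3 segments came almost entirely from TLR9-/- libraries, which also held 491 of the 685 members in all. Other Trbv segments were less frequent, with Trbv13-3 in 35 members, Trbv13-1 in 29, Trbv12-2 in 28, Trbv1 in 26 and Trbv29 in 25.

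Members of different receptor classes also differed in other genes, given here as a description over all libraries without the cells of high myeloid load. The 96 Trdc-positive members held 1656 UPM (of the set) of Tyrobp, 1047 of Gzma (granzyme A), 200 of Klra4 (a Ly49 receptor, of a family of similar copies) and 110 of Eomes, a transcription factor of NK cells. The 97 Trbv13-2-positive members held 241, 157, 10.5 and 5.25 of the same genes, lower for each. The order was the other way for 4 genes that were also chosen after their values were seen. The Trbv13-2-positive members held 499 UPM of Cxcr6, a homing receptor of tissue lymphocytes, 163 of Cd40lg (CD40 ligand), 698 of Ly6a (Sca-1) and 57.7 of Zbtb16. The Trdc-positive members held 125 of Cxcr6, 0 of Cd40lg, 68.1 of Ly6a and 3.78 of Zbtb16. Zbtb16 had a UMI in 8.25% of the Trbv13-2-positive members and in 1.04% of the Trdc-positive ones. The 301 members with alpha-beta but no gamma-delta constant segments lay between them, with 871 of Tyrobp and 240 of Cxcr6. The 112 members with no receptor constant UMI held 2397 UPM of Tyrobp and 366 of Ncr1, at a median depth of 1627 UMIs. These levels are pooled over libraries, which entered the sets in different shares. WT replicate 1 gave 35 of the 112 members without a receptor constant UMI, 8 of the 96 Trdc-positive and 19 of the 97 Trbv13-2-positive members. The sets share cells where a member had both Trbv13-2 and an alpha-beta constant segment.

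Setting the members against CD8 cytotoxic T cells of the same mice asked what went with the absence of Cd8 transcripts. Of the genes tested, 6 of 9 NK cell genes and 3 of 7 killer lectin-like receptors were higher in members, and 5 of 11 genes of naive and central memory T cells were lower. Ccr7, the receptor that leads naive and central memory cells to lymph nodes, was at 9.63, 12.9, 6.12 and 5.83 CPM in the members of the 4 libraries and at 96.5, 219, 72.2 and 207 CPM in the CD8 cells. CPM here is the number of UMIs per 1000000 UMIs of the group, as edgeR gives it after scaling. All 4 member values lay below all CD8 values, with a log2 fold change of -3.81 (SE 0.31, adjusted p = 3.23e-05). Dapl1, of the same gene list, was at 6.42, 2.35, 6.12 and 0 against 93.3, 223, 54.2 and 336 CPM (log2 fold change -5.01, adjusted p = 0.000102). Ncr1 was at 169, 88.2, 101 and 46.6 CPM in members and had 0 UMIs in the CD8 cells of every library, which puts the members at least 26.8-fold higher against 3 UMIs over the CD8 group. Xcl1, a chemokine for dendritic cells, was at 511, 247, 477 and 163 against 116, 95.8, 181 and 0 CPM (log2 fold change 1.79, SE 0.25, adjusted p = 0.00335), higher in members in 4 of 4 libraries.

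Of 3435 genes tested in this comparison 85 passed (2.47%), with 46 higher in members (1.34%) and 39 lower (1.14%). Both groups were chosen by UMIs of the same cells, so genes that go with Cd8 UMIs within a cell are not independent of that choice. Of 9 NK cell genes tested beside the rule's own, 6 were higher and 0 lower, with a median log2 fold change of 1.33 against 0.01 over all genes. Tyrobp was higher at 2.29 (SE 0.33, adjusted p = 0.00409), Fcer1g at 1.95, and the NK receptors Klrk1 (NKG2D) at 1.51 and Klre1 at 1.32. Il2rb, a receptor chain for interleukins 2 and 15, was higher at 0.98. Of 7 killer lectin-like receptors 3 were higher, with Klrc1 (NKG2A) at 1.78. Id2, a regulator needed by innate lymphocytes, was higher at 1.20 (adjusted p = 0.00939), and Trgv2, the second sequence above, at 2.01 (adjusted p = 0.0345). In the CD8 group Trgv2 was found in only 7 cells.

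Of 11 naive and central memory genes, 5 were lower and 0 higher (median -1.05), including the transcription factors Lef1 at -1.60 (adjusted p = 0.0104), Tcf7 at -0.98 and Klf2 at -1.20. Of 14 T cell signalling genes 3 were lower, with the adaptor Lat at -1.43 (SE 0.20, adjusted p = 0.00300). Of 8 cytotoxic effector genes 0 passed the test in either direction, with a median of 0.28, and of 18 interferon-stimulated genes 0 passed, with a median of -0.31. Ribosomal protein genes were lower for 13 of 80 (median -0.41), among them Rps15a at -0.65. Neutrophil genes were higher for 6 of 10 (median 3.97), with S100a9 at 4.56, and they move with the myeloid load described above.

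Without the cells of high myeloid load in either group, 138 of 2778 genes passed (4.97%), with 54 higher (1.94%) and 84 lower (3.02%), and no neutrophil gene was left to test. The NK difference was then larger, with 8 of 10 NK genes higher, Tyrobp at 3.49 and Xcl1 at 2.31. Klra4 was at 91.4, 74.6, 92.1 and 59.6 CPM in these members against 0 UMIs in the CD8 cells, at least 15.7-fold higher. Trdc was at 156, 239, 48.2 and 131 CPM against 16.6, 5.45, 0 and 0, too few UMIs in the CD8 cells for an exact fold change. Over all CD8 cytotoxic T cells it had 4, 1, 0 and 0 UMIs in the 4 libraries. It passed the filter through the members alone, so its sign was fixed. All 3 gamma-delta genes tested were higher, a count that includes Trdc. Ccr7 stayed lower at -3.25 and Dapl1 at -4.37, while Trac, lower over all members at -1.03, no longer passed (-0.57, adjusted p = 0.0825), and ribosomal genes were lower for 46 of 79. Over all cells, 19 genes passed without TLR9-/- replicate 2, where Tyrobp no longer passed, and 17 passed with members limited to those with a receptor constant UMI. The groups also touch, because 56 of 231 CD8 cytotoxic T cells had exactly 1 Cd8 UMI and 25.4% lost all of them when thinned to 1000 UMIs.

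**Figure D4:**
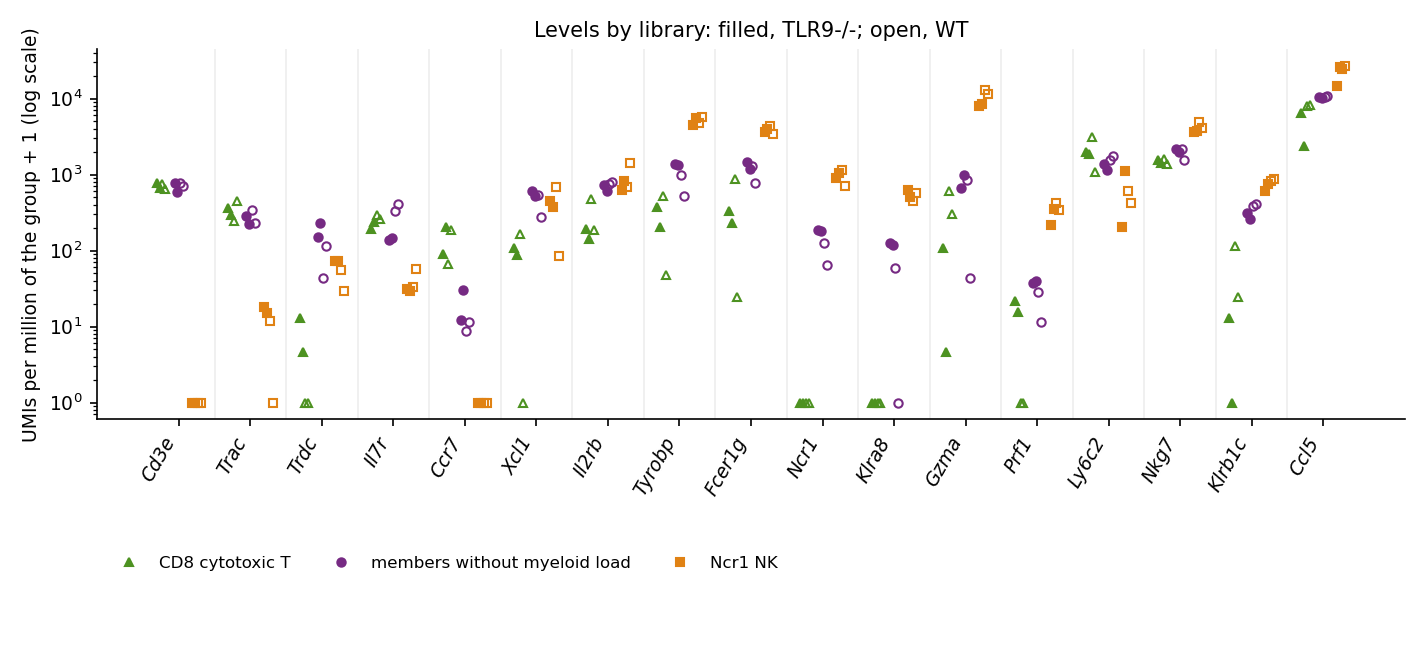
Levels of selected genes in UMIs per 1000000 UMIs of the group plus 1, on a log scale, with 1 point per library (filled for TLR9-/-, open for WT). The groups are members without the cells of high myeloid load, all CD8 cytotoxic T cells and all Ncr1-positive NK cells. Within each library these members lie between the other groups for Tyrobp, and below CD8 cytotoxic T cells for Ccr7.

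Members were also set against cells with NK genes but without Cd3 transcripts. The 197 Ncr1-positive NK cells, with 93, 23, 63 and 18 per library, had no Cd3 UMI, at least 1 Ncr1 UMI and none of the progenitor genes Mpo, Elane and Prtn3. They were taken for this comparison after the data had been seen, because most Cd3-negative cells with NK genes carried Mpo. Ncr1 had a UMI in 18.4% of members, so that the groups differ in this choice as well as in Cd3, and lower NK genes in members are not independent of it. Gzma was at 658, 450, 742 and 136 CPM in members and at 8361, 8848, 13808 and 12773 CPM in NK cells. Every member value was below every NK value, with a log2 fold change of -4.52 (SE 0.32, adjusted p = 5.17e-08). Prf1 (perforin), which opens the target cell membrane, was at 34.4, 20.8, 23.7 and 6.46 against 225, 366, 453 and 378 CPM (log2 fold change -3.67). Klra4 was at 83.1, 48.1, 71.2 and 32.3 against 557, 645, 511 and 818 CPM (-3.27), and Tyrobp at 1824, 1670, 1349 and 1679 against 4677, 5742, 5075 and 6355 CPM (-1.74). For Tyrobp, members lay above the CD8 cells and below the NK cells in every library.

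Of 2730 genes, 179 passed against Ncr1-positive NK cells (6.56%), with 90 higher in members (3.3%) and 89 lower (3.26%). NK cell genes were lower for 13 of 15 (median -1.81 against 0.03 over all genes), killer lectin-like receptors for 14 of 15 (median -2.13) and cytotoxic effector genes for 7 of 11 (median -1.09). Gzmb was lower at -3.01, the chemokines Ccl3 and Ccl4 at -3.05 and -2.87, and Eomes at -1.81. Chemokine receptor and homing genes were lower for 7 of 14 and higher for 1, which was Cxcr6 at 2.49. Xcl1 had a log2 fold change of -0.10 and did not pass (adjusted p = 0.997). Genes of other cell types were among those higher in members, with 6 of 6 neutrophil genes (median 6.40), 3 of 5 erythroid genes (median 2.17) and 2 of 5 monocyte and macrophage genes. The NK cells were chosen without UMIs of Mpo, Elane and Prtn3, which are on the neutrophil list. Higher neutrophil genes in members are therefore not independent of that choice. Without the cells of high myeloid load no neutrophil gene was left to test, and 4 of 5 erythroid genes were higher (median 3.98). Their part in the result was not tested.

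Of the 3 alpha-beta constant genes, Trac and Trbc2 were higher in members and Trbc1 had a log2 fold change of -0.47 that did not pass, while naive and central memory genes were higher for 2 and lower for 2 of 6. Trac (chr14:54220521-54224206) was at 245, 122, 298 and 161 CPM in members and at 18.0, 14.6, 11.6 and 0 CPM in NK cells, apart in every library (log2 fold change 3.93, SE 0.40, adjusted p = 3.62e-06). Trbv13-2 was at 175, 55.9, 146 and 136 against 0, 14.6, 0 and 0 CPM, too few UMIs in the NK cells for an exact fold change. Il7r, the interleukin 7 receptor that keeps memory T cells alive, was at 124, 79.3, 295 and 284 against 31.4, 29.3, 34.8 and 62.9 CPM (2.24, adjusted p = 0.000265). Also higher were Ly6c2, a surface protein of memory T cells and monocytes, at 2.06, Ly6a at 2.71, the tumour necrosis factor family member Ltb at 1.42, Thy1 at 1.12 and Lat at 1.94. Thy1 and Lat are the 2 of 10 T cell signalling genes tested that passed, and the list had 5 positive and 5 negative values (median 0.07). Without the cells of high myeloid load 5 of 11 passed, all higher, with 10 positive values and 1 negative (median 0.615). Trdc did not pass over all members (0.54, adjusted p = 0.482) and passed without the cells of high myeloid load (1.08, adjusted p = 0.0150). Without those cells 208 of 2007 genes passed (10.4%), with 119 higher (5.93%) and 89 lower (4.43%), Gzma was at -3.86, and ribosomal protein genes were higher for 56 of 79, against 6 of 80 before. Against the whole Cd3-negative group of 2995 cells, most of which are progenitors, 3293 of 9349 genes passed (35.2%), 1710 higher in members (18.3%) and 1583 lower (16.9%), with all 16 T cell signalling genes and all 15 killer lectin-like receptors higher.

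Within the members, the effect of TLR9 loss was compared over UMIs summed per library. Fewer cells of a subset and less RNA per cell cannot be told apart in such sums. Tlr9 itself (chr9:106222598-106226883) had 0 UMIs in members of every library, so that the disrupted gene could not be checked in them, and had 41, 48, 120 and 97 UMIs over all kept cells. The marker genes overlapped between genotypes. In the order TLR9-/- 1 and 2, WT 1 and 2, Cd3e was at 609, 265, 601 and 389 CPM and Nkg7 at 1793, 1320, 1866 and 1071 CPM. Klrb1c was at 248, 126, 305 and 208 CPM and Ccl5 at 8170, 4681, 7972 and 6573 CPM. TLR9-/- replicate 2 was low for Cd3e, Klrb1c and Ccl5, and it also had the largest share of members of high myeloid load. By UMIs the order differed, with 18.7% of member UMIs on neutrophil and monocyte genes in WT replicate 2 and 10.1% in TLR9-/- replicate 2.

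Of 6049 genes tested, 0 passed edgeR's quasi-likelihood test at an adjusted p of 0.05 (0% called), 144 had an unadjusted p under 0.05, and DESeq2 called 10 genes, 3 higher and 7 lower. The libraries of the genotypes did not overlap for 15.5% of genes with TLR9-/- higher and for 15.4% with TLR9-/- lower.

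The genes of smallest p value, none of which passed, included several with UMIs in 1 genotype alone. BC018473 (chr11:116752167-116759373), annotated as antisense and so uncertain where strand was not used in counting, was at 240 and 473 CPM in TLR9-/- members and had 0 UMIs in WT members, at least 68.8-fold higher against 3 UMIs over the group (adjusted p = 0.0940). St6galnac2, a sialyltransferase whose symbol belongs to a pair of overlapping annotations, was at 103 and 55.1 CPM against 0 UMIs, at least 16.3-fold higher, and the noncoding Gm35082 at 44.4 and 37.4 CPM against 0 UMIs, at least 8.03-fold higher. Retnlg, a neutrophil gene, was at 193 and 206 against 29.3 and 21.3 CPM (log2 fold change 2.92, SE 0.37, adjusted p = 0.0950), and Mid1 at 45.4 and 54.0 against 5.86 and 5.33 CPM (3.09).

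On the other side, Trim12a, a member of the TRIM5 family, had 0 UMIs in TLR9-/- members and was at 58.6 and 58.6 CPM in WT members, at least 33.5-fold lower in TLR9-/-. Tmem108 (chr9:103482947-103761837), a membrane protein gene, was at 1.01 and 0 against 82.0 and 53.3 CPM (log2 fold change -6.58, SE 0.74, adjusted p = 0.0940). Hbb-bt, a beta globin, was at 99.0 and 90.3 against 1532 and 719 CPM (-3.58), and Hba-a1, whose reads can be shared with its near-identical copy Hba-a2, at 137 and 404 against 1547 and 1971 CPM. Globin UMIs lay in few cells, with 6268 of the 6375 globin UMIs of WT replicate 1 in 9 members. Pooled by genotype, Hba-a1 was also lower in TLR9-/- over all kept cells, at 1050 UPM (of those cells) against 3019 in WT. The same held in the Cd3-negative group, at 147 against 425 UPM (of the group). Hba-a1 was higher in TLR9-/- in CD8 cytotoxic T cells, at 465 against 57.9, and in Ncr1-positive NK cells, at 168 against 39.2. Hbb-bs had the same directions in these groups. Without the cells of high myeloid load, 7 of 3656 genes passed (0.191%). BC018473 and St6galnac2 were higher in TLR9-/- (0.0547% called), and Tmem108, Trim12a, Hba-a1, Hba-a2 and Hbb-bt were lower (0.137% called). Tmem108 was then at 1.49 and 0 against 106 and 117 CPM (log2 fold change -6.31, adjusted p = 0.00339).

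**Figure D5:**
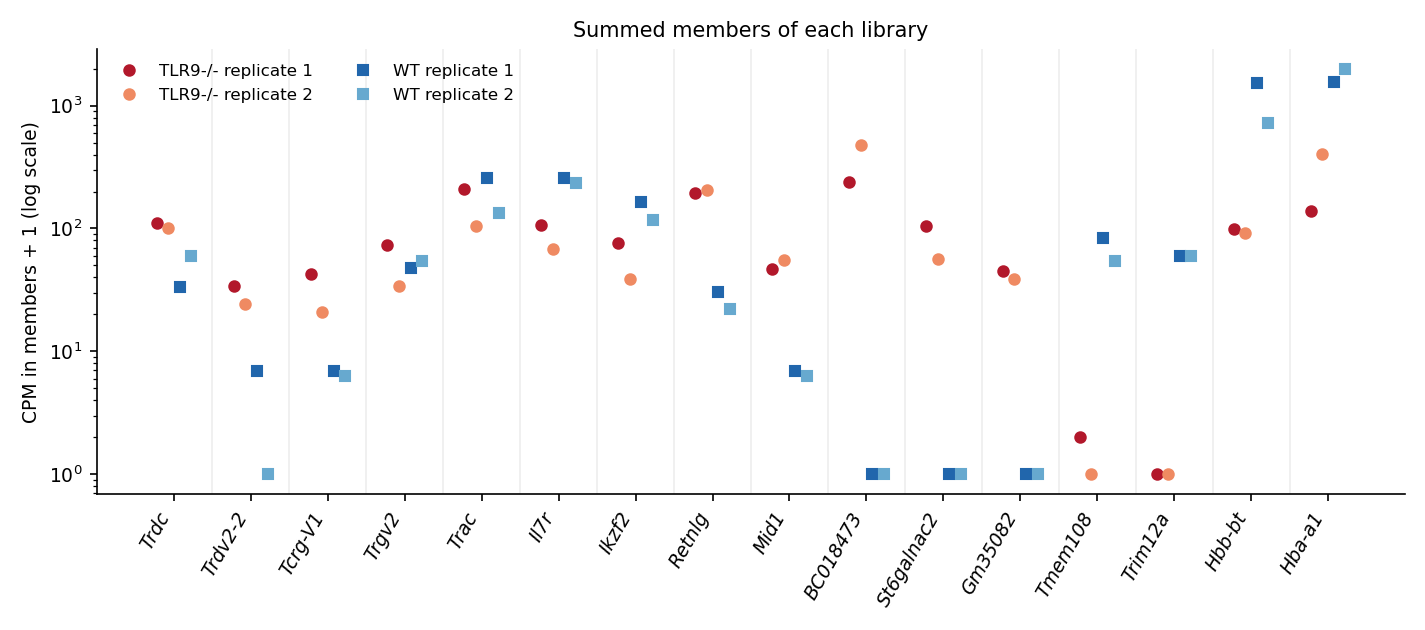
CPM plus 1 in the summed members of each library, on a log scale. The genes are T cell receptor genes, Il7r, Ikzf2 and genes of small p value between genotypes. Trac and Trgv2 overlap between TLR9-/- and WT, whereas BC018473 lies at 240 and 473 CPM against 0 and Trim12a at 0 against 58.6 and 58.6 CPM.

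No list had a member past the test between the genotypes over all members. Of 7 gamma-delta genes tested, 6 had a positive log2 fold change, with a median of 1.28 against -0.02 over all genes. Trdc (chr14:54142851-54148868) was at 110 and 100 CPM in TLR9-/- members and at 32.2 and 58.6 CPM in WT members, apart between genotypes (1.28, SE 0.39, adjusted p above 0.99, unadjusted p = 0.0123 by edgeR). Trdv2-2 was at 33.3 and 23.1 against 5.86 and 0 CPM, whereas Trgv2 overlapped at 72.7 and 33.0 against 46.9 and 53.3 CPM. Trdv2-2 passed the filter through the TLR9-/- libraries alone, so its sign was fixed. The list's count of positive values and its median include it and are no separate support for a difference. The 3 alpha-beta constant genes all had negative values (median -0.37). Trac overlapped between genotypes, at 208 and 104 against 258 and 133 CPM, whereas Trbc2, at 249 and 170 against 252 and 298 CPM, and Trbc1, at 136 and 83.7 against 141 and 144 CPM, did not, by a small margin in replicate 1.

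Il7r was the naive and memory gene of smallest p, at 105 and 67.2 CPM in TLR9-/- members and 255 and 234 CPM in WT members, apart between genotypes (log2 fold change -1.51, SE 0.34, unadjusted p = 0.00272 by edgeR). Without the cells of high myeloid load it was at 144 and 154 against 376 and 457 CPM (-1.46, adjusted p = 0.0528). The direction was not particular to the members. Over all kept cells, pooled by genotype, Il7r was at 42.9 UPM (of those cells) in TLR9-/- against 98.9 in WT. In CD8 cytotoxic T cells it was at 191 and 233 UPM (of the group) in TLR9-/- libraries against 296 and 257 in WT libraries. The transcription factors Ikzf2 (Helios), at 75.7 and 37.4 against 164 and 117 CPM, and Bcl11b, at 35.3 and 30.8 against 64.5 and 74.6 CPM, were also apart, and of 20 transcription factors tested 15 had negative values (median -0.09).

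Apart from the basophil list, the list furthest from the median of all genes was that of erythroid cells, with 5 negative values of 6 (median -2.89). The 3 basophil genes tested included Cpa3 and Fcer1a, which were at 0 CPM in both WT libraries. These passed the filter through the TLR9-/- libraries alone, so their sign was fixed and the list's median is no fold change. Nearly all UMIs of both lists lay in the few members given above. NK cell genes had 9 positive and 6 negative values (median 0.18), with Tyrobp at 1551 and 1415 against 1166 and 1385 CPM and Klra8 at 101 and 57.3 against 43.9 and 5.33 CPM. Cytotoxic effector genes had 9 and 4 (median 0.11), with Gzma at 559 and 381 against 642 and 112 CPM. Interferon-stimulated genes had 9 positive and 17 negative values (median -0.23), with Ly6e at 1698 and 1204 against 1834 and 1081 CPM. The 16 genes of the endosomal TLR pathway that were tested had 8 of each sign and a median of 0.00, with the chaperone Hsp90b1 at 437 and 514 against 331 and 309 CPM. Cytokine genes had 4 positive and 5 negative values (median -0.14), with Xcl1 at 483 and 231 against 457 and 149 CPM and Ifng at 52.5 and 8.81 against 146 and 0 CPM. Early response genes had 12 and 7 (median 0.14), MHC class I genes 3 and 12 (median -0.07) and ribosomal protein genes 23 and 57 (median -0.10). Cell cycle genes had 7 positive and 15 negative values (median -0.22) over all members but 14 and 2 (median 0.51) without the cells of high myeloid load, so that the sign of this list turned.

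Whether the genotype effect itself differed between members and other cells was tested with an interaction term in edgeR. Against CD8 cytotoxic T cells 31 of 4516 genes passed (0.686%), led by neutrophil and globin genes, and 6 passed without the cells of high myeloid load. Against Ncr1-positive NK cells 4 of 3657 passed (0.109%), all of them globins. Against the whole Cd3-negative group 3 of 10153 passed (0.0295%), which were Tmem108, Retnlg and Mgst3.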

How the data were processed

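Whole-number UMI counts per gene and cell were deposited by the authors, made with Cell Ranger 3.0.1 (as the file headers state) and STAR on mm10 (GRCm38), before libraries were brought to equal depth. Whether counting used strand is not given in the sources used here. Cells with 200 to 10000 genes and at most 10% mitochondrial UMIs were kept (39167 of 40545); the methods print 0.10%, read here as a fraction. The members and gene lists were chosen with earlier results of these data known. UMIs were summed per library and group and compared with edgeR 4.0.16 in R 4.3.3 (filterByExpr, TMM, quasi-likelihood, two-sided, Benjamini-Hochberg over all genes tested), with library as a block between cell groups, and genotype alone between genotypes. Cells are not replicates. Named genes were the markers, Tlr9, the 5 to 10 of smallest p in each direction, and from each list the most abundant and that of smallest p. The V segments, the genes of the receptor subsets and further members of the lists were named after their values were seen. Alternatives were RLE, DESeq2 1.42.0, filters, thinning to 1000 or 1500 UMIs, doublets (Scrublet, scanpy 1.11.5), stricter rules, a replicate block and each library left out. Leaving out cells with 20 or more neutrophil and monocyte gene UMIs, and the comparison with Ncr1-positive NK cells, were added after seeing the data. Tests were checked on simulated data.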

Additional observations from a re-analysis of the deposited data

Results flagged for a closer look

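The results named here differed in the effect of TLR9 loss between members and another group of cells by an interaction term (edgeR, adjusted p under 0.05), and each value is the log2 effect in members minus that in the other group. Against the Cd3-negative group, Tmem108 differed by -6.10 (adjusted p = 0.0189), Retnlg by 3.36 (adjusted p = 0.0241) and Mgst3 by 3.25 (adjusted p = 0.0488). Against CD8 cytotoxic T cells, S100a9 differed by -5.38, S100a8 by -5.24, Elane by -6.58, Hbb-bs by -6.41 and Hba-a1 by -5.87. Against Ncr1-positive NK cells, Hbb-bs differed by -3.93, Hba-a1 by -4.82, Hba-a2 by -4.30 and Hbb-bt by -4.54. S100a9, S100a8 and Elane are neutrophil genes, whose UMIs in members lay almost entirely in the 77 members of high myeloid load. Each difference also holds the other group's values. S100a9 was at 2355, 5411, 18.7 and 439 CPM in the CD8 cells of TLR9-/- replicates 1 and 2 and WT replicates 1 and 2, and its log2 effect within members was -0.997 (unadjusted p = 0.263 by edgeR). Hbb-bs was at 5138, 497, 262 and 82.3 CPM in the CD8 cells, in the same order. The part of doublets and of free RNA was not tested.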

How the results depend on the processing

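The share of members among all kept cells passed the test with at least 1 receptor constant UMI required (log2 fold change 1.48, adjusted p = 0.0427) and with a replicate block (1.33, adjusted p = 0.00162), and ranged from 0.63 to 2.10 with 1 library left out. The labels do not say whether same-numbered libraries share an experiment; they deviated together (r = 0.329 over 6049 genes), but 2 pairs do not show pairing. Among T and NK cells the difference of 2.32 points ranged from -3.56 to 8.21 with 1 library left out. The share with neither receptor class, 2.85 points higher in TLR9-/-, turned to -6.75 without thinning, -7.24 at 1500 UMIs and -3.10 without WT replicate 2 (range to 8.80). With 1 library left out, the alpha-beta difference ranged from -15.5 to -8.66, the gamma-delta difference from 5.13 to 5.72, that with both from 0.98 to 6.63 and that with Trav11 from 0.299 to 0.763. Without thinning the first 3 were -7.69, 3.35 and 11.1, at 1500 UMIs -7.89 (the genotypes then overlap), 5.92 and 9.21, without Scrublet doublets -18.3, 5.22 and 8.43, and without high myeloid load -14.8, 7.08 and 4.15.

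Between genotypes, 0 calls became 10 with DESeq2, 35 without a filter, 5 after thinning, 2 with at least 2 Cd3 UMIs, 7 without high myeloid load, 23 with a replicate block, 20 with both of these and 0 to 21 with 1 library left out. Against the Cd3-negative group 3293 calls became 1639 after thinning, 1735 without high myeloid load and 1986 to 3068 with 1 library left out; its 3 interaction calls became 15 without a filter and 19 without high myeloid load. Against CD8 cytotoxic T cells 85 calls became 252 without a filter, 29 with a minimum count of 20, 35 with an NK score of at least 3, 50 with at least 2 Cd3 UMIs, 17 with a receptor constant UMI, 138 without high myeloid load, 19 without the library block and 19 to 70 with 1 library left out, and its 31 interaction calls became 6 without high myeloid load. Against Ncr1-positive NK cells 179 calls became 443 without a filter, 119 with a minimum count of 20, 106 with a receptor constant UMI and 132 to 238 with 1 library left out. Over 1060 values of 74 named results in these alternatives, each of 1 gene in 1 comparison, 87 lost a call, 65 gained one and 0 changed sign. Some genes were named in more than 1 comparison. Causes of these changes were not tested. Depth limits the precision of every comparison, with 50 to 358 members per library.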

Other observations

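The following genes were chosen after their values were seen. Several genes with UMIs in 1 genotype of the members showed the same pattern over all kept cells. BC018473 UMIs numbered 7673 and 14319 with TLR9 disrupted and 2 and 0 in WT mice, those of St6galnac2 503 and 534 against 1 and 4, those of Gm35082 1278 and 2123 against 1 and 1, and those of Trim12a 5 and 7 against 1051 and 1256. Tmem108 had UMIs in both genotypes, at 15.1 UMIs per 1000000 in TLR9-/- against 38.2 in WT over all kept cells and at 24.6 against 164 in CD8 cytotoxic T cells (32 UMIs in all), and it had 0 UMIs in Ncr1-positive NK cells of every library. On GRCm38, Tmem108 lies 2.46 Mb from Tlr9 on chromosome 9, St6galnac2 57.3 kb from BC018473 on chromosome 11, and Trim12a 486 kb from Hbb-bt and 3.62 Mb from Gm35082 on chromosome 7.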
